A study of Mus musculus with 6 samples.

Results

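Of the 61839 lung cells in the series, 67 carried the cluster name DC2 in the deposited annotation of cells, and these 67 cells are described here. They were chosen by that name alone, which the study uses for the second of its clusters of dendritic cells. The first, DC1, held 184 cells and serves as the comparison. DC2 cells made up 0.108% of all cells, the smallest of the 34 named types, and came from 25 of 36 mice. The lungs were taken from C57BL/6 mice at postnatal day 3, 7 or 14 (P3, P7, P14), which had breathed either room air (21% O2, normoxia) or 85% O2 (hyperoxia) from birth, a model of the lung injury of preterm infants on oxygen. Each of the 6 groups of age and oxygen held 6 mice. Nursing dams were exchanged between normoxic and hyperoxic litters, and no transgene or targeted allele is named for any group. The paper counts unequal sexes at P3 and P7 among its limits, with equal sexes at P14. Sex was not used here, and its part in the differences below was not tested. Lungs were perfused and dissociated with enzymes, the cells of each mouse were marked with a lipid-bound sample barcode (MULTI-seq), and pools of 3 normoxic and 3 hyperoxic mice of an age were captured with the droplet method of 10x Genomics and sequenced from the 3′ end. A pool that joined P3 and P7 mice was loaded as 2 libraries, and no pool joined P14 mice with those of another age, so that for P14 age and pool cannot be told apart.

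Dendritic cells take up antigen in the tissue, and on activation they switch from uptake to transport and presentation. They lose receptors for microbial products, put the chemokine receptor Ccr7 on their surface, follow its ligands into lymph vessels and reach the draining lymph node. There they show peptide on MHC molecules to T cells together with costimulatory molecules, and secrete chemokines and cytokines that attract and instruct T cells. NF-kB transcription factors drive much of this switch, and similar programs of Ccr7-positive cells are known for conventional dendritic cells of both type 1 and type 2.

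The DC2 cells held a median of 5457 unique molecular identifiers (UMIs, counted RNA molecules), between 1516 and 17613, and a median of 1862 genes, against 8647 UMIs for DC1 cells. In all, 405973 UMIs stood behind DC2 and 1715760 behind DC1, so that a gene with no UMI in DC2 could still have been present at up to 7.39 CPM (UMIs scaled to a sum of 1000000, with 3 counts of the total as the limit). Each mouse contributed between 125 and 3036 cells of all types. The count of the cell's own sample barcode had a median of 80.0% of all its barcode counts in DC2, 80.9% in DC1 and 73.9% over all cells, and it passed 50% in 60 of the 67 DC2 cells. Of all cell barcodes, 394 occurred in more than 1 library, among them that of 1 DC2 cell. The highest UMI total of a DC2 cell was 3.23 times the median, and the cells were used as annotated. Haemoglobin RNA set 1 mouse apart. The 4 globin genes summed to between 0 and 106728 CPM in the DC2 cells of a mouse, with a median of 0, and the highest value belonged to P3 mouse 2 at 21% O2, which held 2 DC2 cells. UMIs of Hbb-bs were also found in 70.8% of the 24 DC2 cells of the library that held only P7 mice, against 0 to 28.6% of those of the other 5 libraries. Hbb-bs was for this reason among the 12 genes of highest ratio to DC1, with a log2 ratio of 6.20 that became 0.70 without that mouse.

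The name was first set against marker genes. Of the markers given for the cluster, the chemokine receptor gene Ccr7 (chromosome 11, 99144196 to 99155077, minus strand, GRCm38, GENCODE vM21) had a UMI in every one of the 67 cells, against 2.17% of DC1 cells and 0.764% of Col13a1+ fibroblasts, a cell type that should lack it, whose cells held a median of 4657 UMIs. With all cells thinned to 1000 UMIs, the shares were 95.5% in DC2, 1.09% in DC1 and 0.157% in the fibroblasts (692 shallower fibroblasts and no dendritic cell left out). Fscn1, the actin-bundling protein of dendritic extensions (chromosome 5, 142960343 to 142973185), was found in 89.6% of DC2 cells, in 0 of 184 DC1 cells and in 20.6% of the fibroblasts. Ccl22 (chromosome 8, 94745590 to 94751699), a chemokine for regulatory and type 2 helper T cells, was found in 70.1% of DC2 cells, 9.78% of DC1 cells and 0.0868% of the fibroblasts. The 3 genes coincided in 43 of the 67 cells.

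Most genes that define conventional type 2 dendritic cells were absent or low. Cd209a, Clec10a, Itgam and Clec4a4 had no UMI in any DC2 cell, and Irf4 and Sirpa were each found in 16.4% of them, against 12% of fibroblasts with Sirpa. The 7 markers together summed to between 0 and 269 CPM in the 17 mice with at least 2 DC2 cells, with a median of 76.3. Cd209a and Clec10a had their highest level over the 34 types in interstitial macrophages (Int Mf), with 78.2 and 68.7 CPM. In DC1 the same 7 markers had a median sum of 24.4 CPM and a highest of 297 CPM, and over all cells summed they had 96.1 CPM in DC2 and 88.0 CPM in DC1, and Irf4, with 42.3 CPM in DC2, ranked 3rd of the 34 types there. The usual surface markers of conventional type 2 dendritic cells were thus mostly low or without a UMI in these cells. From which kind of dendritic cell they came cannot be read from these values. DC2 is used below as the name of the cluster, whose cells had Ccr7 in common. Markers of other lineages were low. No UMI of the 4 NK cell or the 3 mast cell and basophil markers was found, and the 5 T cell markers summed to at most 26.4 CPM in a mouse and the 8 monocyte and macrophage markers to at most 128. The 3 fibroblast collagens had a median sum of 158 and a highest of 4574 in DC2, against 74.6 and 394 in DC1, and their part in the levels below was not tested. Sftpc, the surfactant gene of alveolar epithelium, had a UMI in 98.5% of DC2, 96.2% of DC1 and 96.0% of fibroblast cells.

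Levels are given as CPM of the summed DC2 or DC1 cells of a mouse, over the 17 mice with at least 2 DC2 cells (59 cells) and the 29 mice with at least 2 DC1 cells (180 cells). 16 mice held both. Because the clusters were made from these same genes, differences between them are descriptions, with no test. The gene lists counted below were also chosen with earlier results of these data known, so their counts are descriptions too. Of 4086 genes with enough cells to compare, 710 (17.4%) were at least 2-fold higher in DC2 and 829 (20.3%) at least 2-fold lower, with a median log2 ratio of -0.16 over all genes, on a scale with 10 CPM added to each mean. Of the 710 genes, 168 were higher in DC2 in at least 15 of the 16 mice with both clusters. The plot of all genes by their levels in the 2 clusters shows Ccr7, Ccl5 and Fscn1 far above the diagonal.

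**Figure D1:**
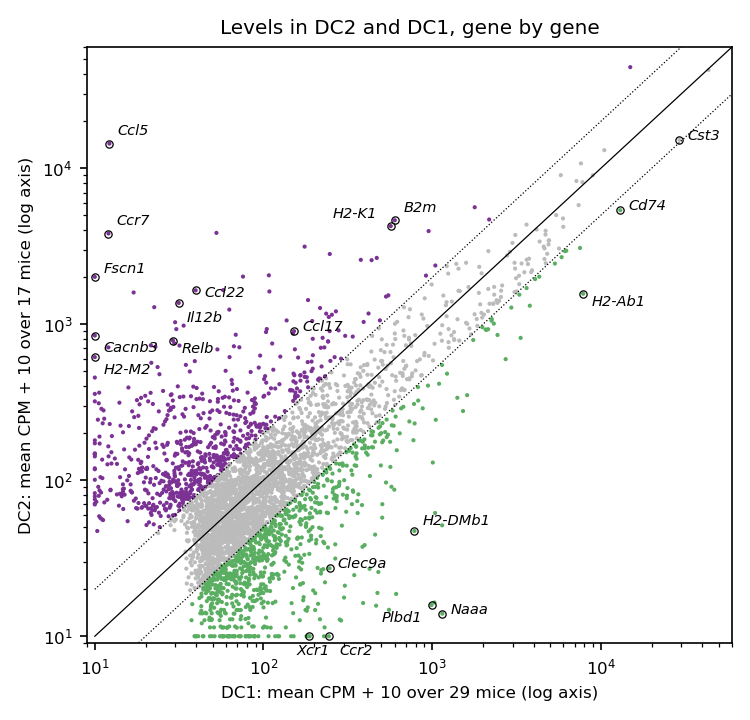
Mean level of each of 4086 genes in DC1 (x axis) and DC2 (y axis), in CPM with 10 added, both axes on a log scale. Each point is a gene. Genes at least 2-fold higher in DC2 (710) or lower in DC2 (829) are coloured and leading genes are named, and no test was made because the clusters were built from these genes.

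After Ccl5, which is described below, Ccr7 and the cytoskeletal gene Fscn1 had the highest ratios to DC1. Ccr7 had between 861 and 6126 CPM in the 17 mice, with a median of 4125, and between 0 and 24.4 CPM in DC1, where the median was 0. The lowest DC2 mouse was thus above the highest DC1 mouse, and the means were 3810 ± 1276 (SD, n = 17) and 2.05 ± 6.27 CPM (SD, n = 29). The DC1 value rests on 4 UMIs. Fscn1 ran from 388 to 4534 CPM with a median of 1938 and had no UMI in DC1, which made it at least 1152-fold higher against a floor of 3 counts over the whole of DC1. Cacnb3, a regulatory subunit of voltage-gated calcium channels, had a median of 756 CPM and no UMI in DC1 (at least 463-fold higher by the same floor). Of 14 genes of migration and the cytoskeleton, 12 passed the 2-fold rule upwards and none downwards, with a median log2 ratio of 2.66. Marcks, which ties actin to the plasma membrane, had a median of 2664 CPM in DC2 and 476 CPM in DC1, and its relative Marcksl1 had 933 and 55.5 CPM. Swap70, an activator of Rac signalling needed for dendritic cell movement, had 458 and 41.8 CPM. All 3 were higher in DC2 in 16 of 16 mice with both clusters. Samsn1, an adaptor that restrains activation of lymphocytes, was also among the 12 genes of highest ratio, with 565 to 2037 CPM in DC2 and 0 to 78.9 CPM in DC1.

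**Figure D2:**
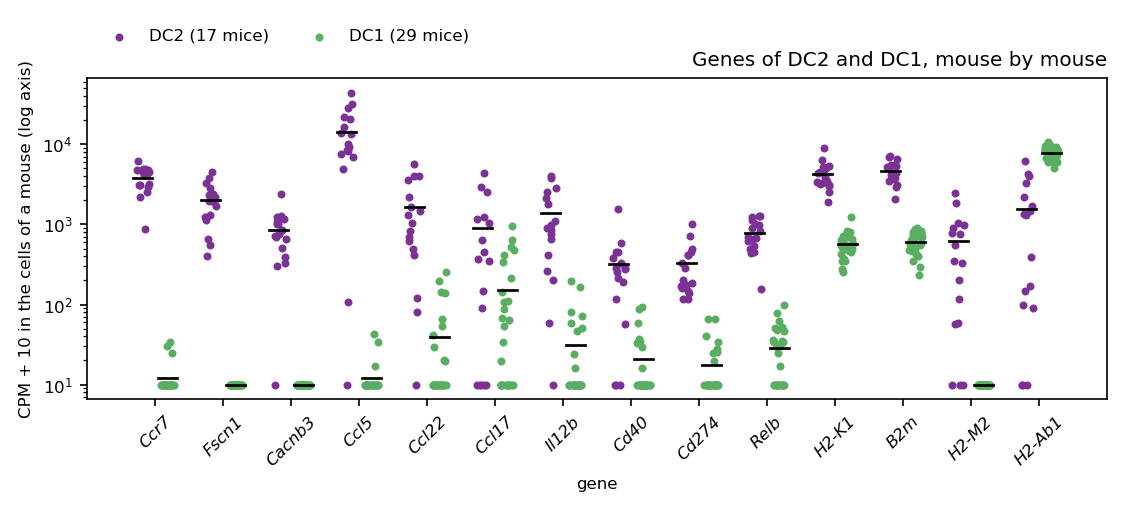
Level of selected genes in each mouse, in CPM on a log scale with 10 added, for the 17 mice with at least 2 DC2 cells and the 29 mice with at least 2 DC1 cells. Each point is a mouse and the bar marks the mean. Ccr7 and Fscn1 of DC2 lie wholly above DC1, and H2-Ab1 of DC2 lies mostly below it.

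Several other chemokine receptors were lower in DC2. Ccr2, the receptor by which monocytes and precursors enter tissue, had no UMI in DC2. Its DC1 median was 182 CPM, so that it was at least 34.2-fold lower against a floor of 3 counts over the whole of DC2. Of 11 receptors on the list, 6 had enough cells to compare, and 4 of these were lower in DC2 and 1, Ccr7, was higher. Only Ccr7 had a UMI in at least 25% of DC2 cells, so no other receptor could be counted as higher. Over all 11 the median log2 ratio was -0.05.

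DC2 cells made RNA of many secreted signals. Ccl5, a chemokine for memory T cells and NK cells (chromosome 11, 83525778 to 83530518, minus strand), had between 0 and 43927 CPM with a median of 10011 in DC2, and between 0 and 33.2 CPM in DC1. With a log2 ratio of 10.21 it was the gene with the highest ratio, although its DC1 mean rests on 3 UMIs. Ccl22 ran from 0 to 5653 CPM with a median of 1046 in DC2 and from 0 to 242 CPM with a median of 0 in DC1 (log2 ratio 5.38). Il12b (chromosome 11, 44400063 to 44414033), the subunit that IL-12 shares with IL-23, had a median of 897 CPM and a highest of 3975 CPM, against a highest of 186 CPM in DC1 (log2 ratio 5.45). The groups of mice overlapped at the low end for all 3, since a mouse without a UMI of each was found in DC2. Il12a, the other chain of IL-12, had no UMI in DC2 and 1 in DC1. Ccl17 (chromosome 8, 94810453 to 94812036), which lies in the same cluster of chemokine genes as Ccl22 and acts on the same receptor, was less divided, with 894 ± 1254 CPM (SD, n = 17) in DC2 and 142 ± 237 CPM (SD, n = 29) in DC1, and it was found in 29.9% of DC2 and 22.8% of DC1 cells. Cxcl16, a membrane-bound chemokine, was higher in DC2 in 15 of 16 mice (log2 ratio 2.18), and Il15, which sustains NK and memory T cells, in 10 of 16. Ccl4, an inflammatory chemokine, and Il1b had the opposite order, with log2 ratios of -4.89 and -1.68. In all, 6 of 9 compared chemokines and cytokines were higher and 2 lower.

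Costimulatory and regulatory genes were high in the same cluster. Cd40, through which helper T cells license dendritic cells, had a median of 269 CPM and a highest of 1525 CPM in DC2, and a median of 0 in DC1 (log2 ratio 3.95). It was found in 47.8% of DC2 cells but also in 33.4% of the fibroblasts. Cd274, which encodes the inhibitory ligand PD-L1, had between 106 and 1009 CPM in DC2 and between 0 and 56.6 CPM in DC1, so that the mice did not overlap (log2 ratio 4.20). Il4i1, a secreted enzyme that breaks down aromatic amino acids and restrains T cells, had a median of 645 CPM and was found in 85.1% of DC2 and 0.543% of DC1 cells. Tnfrsf4 and Tnfrsf9, members of the TNF receptor family better known from T cells (OX40 and 4-1BB), had medians of 338 and 97.0 CPM. The first had 2 UMIs in DC1 and the second none. Cd80, a ligand of CD28, had 90.7 CPM against 14.1 CPM. By contrast, Cd83, a surface marker of dendritic cell maturation, was within 2-fold, with 1458 ± 521 CPM (SD, n = 17) and 894 ± 469 CPM (SD, n = 29). Of 9 compared costimulatory genes, 5 were higher and none was lower, and of 9 regulatory genes, 7 were higher and 1, Havcr2 (TIM-3), was lower.

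Genes of the NF-kB pathway were mostly higher. Of 16 compared, 15 passed the rule upwards and none downwards, with a median log2 ratio of 2.16, although 1 of the 15, Nfkbie, turned to -0.50 when cells were thinned to 1000 UMIs. Relb, the partner of the alternative pathway, had 777 ± 332 CPM (SD, n = 17) in DC2 and 19.0 ± 23.3 CPM (SD, n = 29) in DC1. Its lowest DC2 mouse, at 145 CPM, was above its highest DC1 mouse, at 89.3 CPM. Traf1, an adaptor of TNF receptors, had between 1018 and 2488 CPM against 0 to 336 CPM, and Rel had 592 to 1859 CPM against 80.7 to 535 CPM. Map3k14 encodes NIK, the kinase that starts the alternative pathway, and had a log2 ratio of 2.94. Inhibitors stood with the activators, since Nfkbia, which holds NF-kB in the cytoplasm, had a median of 1253 CPM against 368 CPM and the ubiquitin-editing enzyme Tnfaip3 one of 272 CPM against 73.7 CPM.

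Because these genes were higher together, their promoters were searched for the letters of the classical NF-kB site (GGG, any 2 bases, then TTTCC, or on the other strand GGAAA, any 2 bases, then CCC), in the 250 bases before each start in RefSeq (GRCm38.p6). Of 18 genes on the list, 15 had a promoter in the table and 5 of them held the motif, namely Rel, Nfkb2, Nfkbia, Traf3 and Tnfaip3. Of all 27025 genes with a promoter in the table, 447 (1.65%) held it. A further 9 genes with a promoter were picked by hand (Ccl22, Ccl17, Fscn1, Cacnb3, Il12b, H2-K1, B2m, H2-M2 and Il4i1). Of these 9, 1 held it, B2m. The match is a description of letters and no evidence of binding. Nfkb2 held 2 matches within annotated exons of other starts, and these are not printed. The stretches around the matches are shown 5′ to 3′ along the gene's own strand, with the motif in capitals.
Rel, chr11:23771031-23771080, minus strand: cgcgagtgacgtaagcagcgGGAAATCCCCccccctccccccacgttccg
Nfkbia, chr12:55492648-55492696, minus strand: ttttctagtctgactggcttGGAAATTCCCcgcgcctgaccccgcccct
Tnfaip3, chr10:19015411-19015442, minus strand: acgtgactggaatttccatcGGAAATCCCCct
Traf3, chr12:111166340-111166369, plus strand: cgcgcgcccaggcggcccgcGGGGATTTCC
B2m, chr2:122147541-122147590, plus strand: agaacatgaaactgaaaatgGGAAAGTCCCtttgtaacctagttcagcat
The first 3 and B2m hold the form of the other strand and Traf3 that of the gene's strand, and the matches lay between 10 and 126 bases before the start.

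The 2 classes of MHC genes parted. Class I presents peptides of the cell's own proteins, and of taken-up ones by cross-presentation, to cytotoxic T cells. H2-K1 (chromosome 17, 33996017 to 34000347, minus strand), its classical heavy chain, had between 1891 and 9065 CPM with a median of 3867 in DC2 and between 242 and 1236 CPM with a median of 515 in DC1. B2m, the light chain common to class I molecules, had between 2085 and 7043 CPM in DC2 and between 224 and 892 CPM in DC1. The mice of DC2 and DC1 did not overlap for either gene, and the log2 ratios were 2.91 and 2.95. H2-M2 (chromosome 17, 37480851 to 37483552, minus strand), a non-classical class I gene, had a median of 343 CPM, was found in 43.3% of DC2 cells and had no UMI in DC1. Of 17 compared class I genes, 11 were higher and none was lower, with a median log2 ratio of 1.93. The heavy chain genes are close copies of each other, so reads shared among them could have been lost or split.

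MHC class II, which presents taken-up antigen to helper T cells, had the reverse order. H2-Ab1 (chromosome 17, 34257689 to 34269419), named among the markers of the cluster, ran from 0 to 6138 CPM with a median of 1305 in DC2 and from 5029 to 10785 CPM with a median of 8040 in DC1. It was lower in DC2 in 16 of 16 mice with both clusters (log2 ratio -2.32), and was found in 55.2% of DC2 cells and every DC1 cell. Even so, its mean in DC2 ranked 3rd of the 34 types. That mean was unevenly spread over mice and cells. The median was 149 CPM over 6 mice at P7 and 1697 CPM over 9 mice at P14. The ages overlapped, with 80.6 to 2184 CPM at P7 and 0 to 6138 CPM at P14. The highest single cells held 220.7, 79.5, 67.1 and 57.8 UMIs per 10000, all at P14, while many cells had none. The invariant chain Cd74 had 5381 ± 4117 CPM (SD, n = 17) against 13046 ± 2889 CPM (SD, n = 29). H2-DMb1 and H2-DMa, the exchange factor that loads peptide, had log2 ratios of -4.05 and -2.96, and Ciita, the master regulator of class II genes, one of -1.68. Without P14 mouse 1 at 85% O2, H2-DMa had -3.71 and Ciita -2.23. March1, the ubiquitin ligase that removes class II molecules from the surface, had no UMI in DC2, against a median of 59.2 CPM in DC1. Of 11 compared class II genes, 9 were lower and none was higher, with a median log2 ratio of -1.68. Only 5 of them had a UMI in at least 25% of DC2 cells, so only these could be counted as higher.

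The compared genes of sensing and uptake were lower in DC2, and the markers of conventional type 1 cells divided. Of 17 measured genes of pattern recognition and uptake, 6 were compared and all 6 were lower in DC2. Only 1 of them had a UMI in at least 25% of DC2 cells, so no other could be counted as higher. Over all 17 the median log2 ratio was -1.08. Among the 6 was Tlr3, the sensor of double-stranded RNA, which had no UMI in DC2 and was found in 57.6% of DC1 cells. Clec9a, the receptor for actin of dead cells, ran from 0 to 143 CPM in DC2 and from 72.6 to 521 CPM in DC1. Xcr1, a chemokine receptor of conventional type 1 cells, was found in 1.49% of DC2 and 59.2% of DC1 cells. Of 7 compared type 1 markers, 5 were lower and none was higher. Only the other 2 reached 25% of DC2 cells, so only they could be counted as higher. Both were transcription factors that stayed within 2-fold. Batf3 had 223 ± 158 CPM (SD, n = 17) in DC2 and 245 ± 157 CPM (SD, n = 29) in DC1, and Irf8 had 853 ± 636 CPM against 1692 ± 411 CPM. The mean of both in DC2 ranked 2nd of the 34 types, next to DC1, and they were found in 62.7% and 77.6% of DC2 cells. The type 1 list summed to a median of 1049.6 CPM in DC2 and 3076 CPM in DC1. The genes with the lowest ratios were the lysosomal amidase Naaa, the leukotriene helper Alox5ap and the phospholipase-like Plbd1. Their DC1 medians were 1165, 986 and 986 CPM, and their DC2 medians were 0. Wdfy4, which is needed for cross-presentation of cell-associated antigen, had a log2 ratio of -5.23. Plac8, Ccl4, Ly6e, Ccr2, Rab7b, BC028528, Unc119 and Ckb made up the 12 genes of lowest ratio, with log2 ratios between -5.03 and -4.48, and Rab7b had -5.29 without P14 mouse 1 at 85% O2. Of 6 compared markers of dendritic cells in general, 1 was higher in DC2 and 4 were lower, with a median log2 ratio of -1.18. The higher was Zbtb46, a transcription factor of conventional dendritic cells (log2 ratio 1.12). Flt3, the growth factor receptor common to dendritic cells, was within 2-fold (log2 ratio 0.50). The lower were H2-Aa, H2-Eb1, Cd74 and Itgax. Itgax was found in 10.4% of DC2 cells, and its log2 ratio ran from -1.96 to -1.47 with each mouse left out.

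Smaller groups were counted in the same way, beside 17.4% higher and 20.3% lower over all genes compared. Of 7 compared survival genes, 5 were higher in DC2, and the granzyme inhibitors Serpinb9 and Serpinb6b had medians of 458 and 1064 CPM against 0 in DC1. Of 9 targets of NRF2, the factor that answers oxidative stress, 6 were higher. Gclc, which catalyses the first step of glutathione synthesis, ran from 0 to 5299 CPM in DC2 and from 0 to 186 CPM in DC1, and Slc7a11, the cystine importer, had a median of 119 CPM against 0. Of 6 compared interferon-stimulated genes, 3 were higher and 1 lower, although 1 of the 3, Mx1, was within 2-fold without P7 mouse 1 at 85% O2 (log2 ratio 0.55). Epsti1 among them had between 339 and 6843 CPM against 41.9 to 323 CPM, with no overlap of mice. Of 12 lysosomal genes, 4 were higher and 5 lower, so that this group had no common direction. Lamp1, a membrane protein of lysosomes, was among the higher ones (log2 ratio 3.11). Cd63 of late endosomes, not on that list, was among the 12 genes of highest ratio (log2 ratio 6.56), and 85.8% of fibroblasts held it too. All 7 compared proliferation genes were lower, but none of the 16 on the list had a UMI in at least 25% of DC2 cells. All 7 were thus compared through DC1 alone and could not be counted as higher. Over all 16 the median log2 ratio was -2.15. The annotation placed 88.1% of DC2 cells in the phase G1 against 48.4% of DC1 cells. Phase calls read the same RNA and the 2 clusters differed in depth. Of 17 transcription factors of dendritic cells, 8 were higher and 2 lower, and of 4 p53 targets 2 were higher and none was lower, although 1 of the 2, Mdm2, turned to -1.09 when cells were thinned to 1000 UMIs.

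Against all 34 types, DC2 had the highest mean level for 370 of 1420 eligible genes (26.1%), those with at least 100 CPM and a UMI in at least 25% of DC2 cells. Eligibility rested on DC2 itself and no other type was counted in this way, so the share has no baseline. By ratio to the next type, Il12b and Ccl22 led, with log2 ratios of 5.45 and 5.38 to DC1 as the next. H2-M2 and Apol7c, an apolipoprotein L of dendritic cells, followed with 5.18 and 5.15 to interstitial macrophages. Zmynd15, Nudt17, Mreg, Dscaml1 and Fgfbp3 were also among the 12 genes of highest ratio, with log2 ratios between 3.48 and 4.31. Their next types were DC1, Cap-a, Neut 1, Ciliated and Pericyte 2 in that order. Fscn1 had lymphatic endothelium (Lymph) as its next type, with a log2 ratio of 3.97. Ccr7 and Ccl5 were less particular. The next type for Ccr7 was CD4 T cell 1 at 714 CPM (log2 ratio 2.40) and for Ccl5 it was NK cells at 6803 CPM (log2 ratio 1.08).

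Within the cluster, cells differed in which secreted signals had a UMI. The cells held between 1516 and 17613 UMIs, so a gene without a UMI in a cell may have been missed. Ccl22, Il12b and Ccl5 had a UMI together in 29 of 67 cells, and 25 of these 29 held none of Ccl17. Ccl17 and Ccl5 were found together in 12 cells, Ccl17 without Ccl5 in 8, Ccl5 without Ccl17 in 46 and neither in 1. Ccl17 was found in 14 of 28 cells at P14, in 3 of 31 at P7 and in 3 of 8 at P3. Ccl5 was found in 20 of 28 cells at P14, 30 of 31 at P7 and 8 of 8 at P3. Cells of a mouse share a source, so these are counts of cells and carry no test. The heatmap of single cells shows Ccr7 throughout and the patches of Ccl17.

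**Figure D3:**
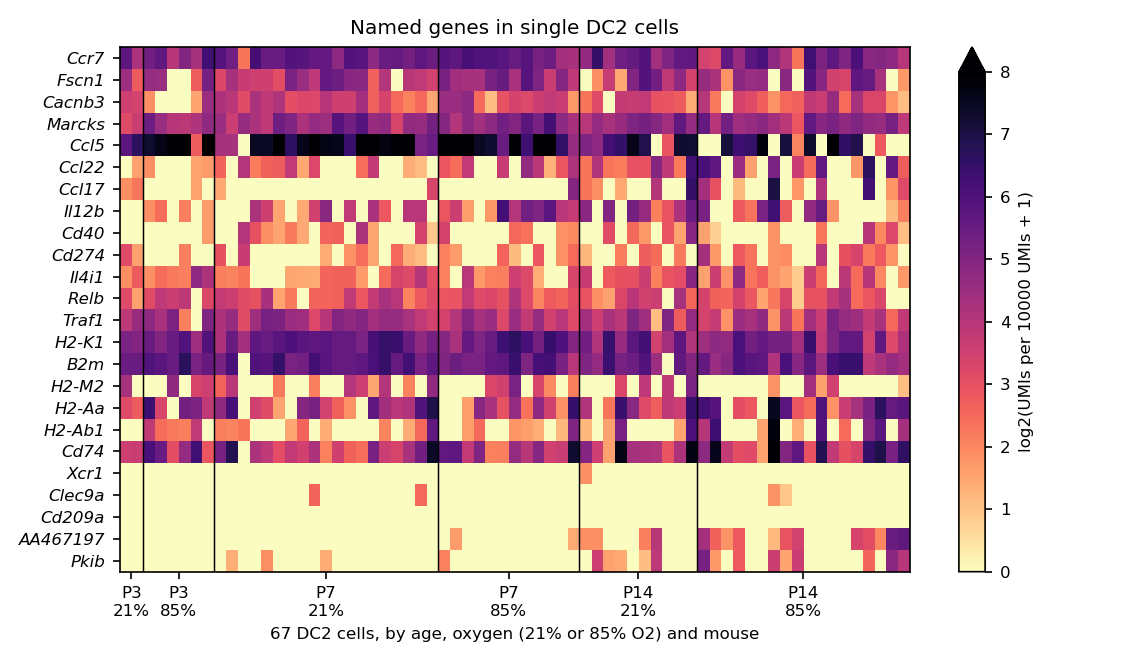
Levels of selected genes (rows) in each of the 67 DC2 cells (columns), grouped by age, as log2 of UMIs per 10000 with 1 added. Ccr7 is present in all 67 cells, Ccl17 in 20, and AA467197 in 18, of which 16 are at P14.

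The share of DC2 among the cells of a mouse was compared over mice. At P3, DC2 cells were found in 1 of 6 normoxic and 4 of 6 hyperoxic mice, with highest shares of 0.0842% and 0.159%. At P7 they were found in 5 of 6 mice of both oxygen groups, with shares from 0 to 0.508% (median 0.200%) in normoxia and from 0 to 0.311% (median 0.0820%) in hyperoxia. At P14 they were found in 4 of 6 normoxic mice, from 0 to 0.168% (median 0.0661%), and in 6 of 6 hyperoxic mice, from 0.118% to 0.330% (median 0.196%). The oxygen groups overlapped at every age. Over a group's cells at P3 and 21% O2, a count of 0 would have allowed a share of up to 0.0290%, for counting error only.

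At P14 the hyperoxic mean was 0.197% ± 0.0750 (SD, n = 6) and the normoxic mean 0.0749% ± 0.0744 (SD, n = 6), a difference of 0.122 percentage points (exact permutation p = 0.0195, 0.0903 after Benjamini-Hochberg adjustment over 102 tests of 34 types at 3 ages). With labels exchanged only within pools the exact permutation p was 0.0250 (0.0981 adjusted), where 0.005 is the smallest the design allows. The difference at P14 thus did not pass the threshold of 0.05 after adjustment. With myeloid cells as the denominator, the adjusted permutation p at P14 was 0.422. DC1 cells at P14 numbered 48 of 13382 cells at 21% and 63 of 9191 at 85% O2, so a higher share there was not limited to DC2. At P7 the normoxic mean was the higher, with a difference of -0.108 percentage points (exact permutation p = 0.297, adjusted 0.560, n = 6 per group), and at P3 the difference was 0.0380 percentage points (exact permutation p = 0.197, adjusted 0.437, n = 6 per group).

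Between ages, DC2 took a larger share at P14 than at P3 under 85% O2, by 0.145 percentage points (exact permutation p = 0.00649, 0.0427 adjusted over 204 tests, n = 6 per group). By edgeR's quasi-likelihood test on the numbers of cells, the adjusted p (Benjamini-Hochberg) of this comparison was 0.140. As a share of myeloid cells, the difference was 0.663 percentage points (adjusted permutation p = 0.0368). DC1 cells went the same way, with 12 of 10188 cells at P3 and 63 of 9191 at P14 under 85% O2. Under 21% O2, the P7 share was above the P3 share by 0.210 percentage points (exact permutation p = 0.0411, adjusted 0.153, n = 6 per group), and edgeR on the numbers of cells gave a log2 fold change of 2.98 with an adjusted p of 0.0212. The pools of P7 were unlike, since the 3 normoxic P7 mice of the pool that held only P7 mice had 0.379%, 0.508% and 0.322%, and the 3 of the pool joined with P3 mice had 0.0576%, 0.0772% and 0%. The 3 normoxic P3 mice of that joint pool had 0%, so that within it P7 and P3 overlapped. Of the 19 normoxic P7 cells of DC2, 17 came from the pool of P7 mice alone, and its part in the difference of ages was not tested. The other 4 comparisons of ages had exact permutation p-values between 0.106 and 0.201. The plot of shares shows 0 in 11 of the 36 mice. In sums over a mouse's dissociated lung, fewer cells in the tissue and fewer cells recovered cannot be told apart.

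**Figure D4:**
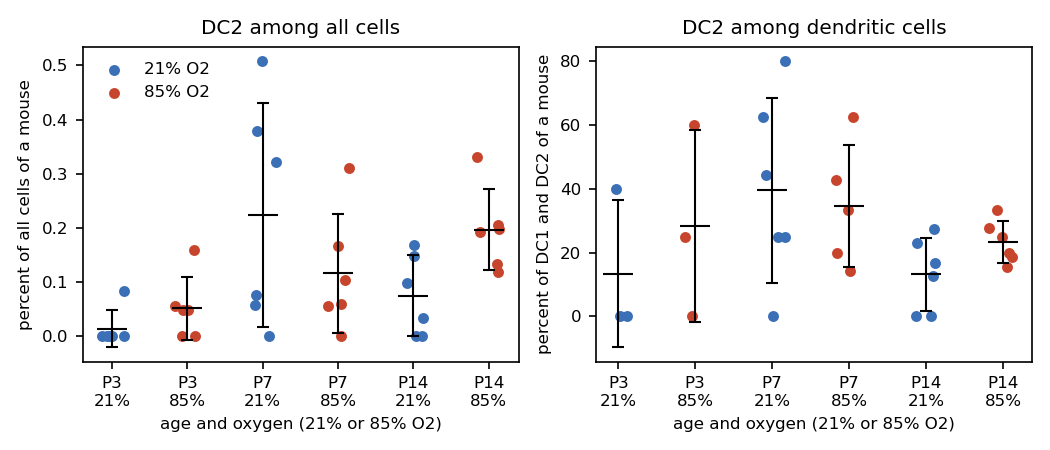
Percentage of DC2 among all cells of a mouse (left) and among its DC1 and DC2 cells where these numbered at least 3 (right), at P3, P7 and P14 under 21% (blue) and 85% O2 (red). Each point is a mouse (6 per group on the left), the long bar is the mean and the whiskers are its SD. On the left, all 6 P14 mice at 85% O2 lie between 0.118% and 0.330%, while each of the other 5 groups holds at least 1 mouse at 0.

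Among dendritic cells alone (DC1 and DC2 together, in mice with at least 3), DC2 cells took 37.3% ± 23.9 (SD, n = 11) at P7, from 0 to 80.0% with a median of 33.3%. At P14 they took 18.3% ± 10.4 (SD, n = 12), from 0 to 33.3% with a median of 19.4%. The difference of -19.0 percentage points had a permutation p of 0.0186 and 0.0745 after adjustment over 4 comparisons, so that it did not pass 0.05. Limited to mice with at least 5 dendritic cells, it was -26.7 percentage points with an adjusted permutation p of 0.0111. Here too the P7 pools were unlike, with 20.0% to 80.0% in the 5 mice of the P7 pool and 0 to 42.9% in the 6 P7 mice of the joint pool, which overlapped the 0 to 33.3% of P14. Between oxygen groups, the shares were 28.4% ± 17.2 (SD, n = 14) in hyperoxia and 23.8% ± 24.5 (SD, n = 15) in normoxia (permutation p = 0.540, adjusted 0.720). P14 differed from P3 (n = 6) by -2.52 percentage points (permutation p = 0.771, adjusted 0.771). P7 differed from P3 by 16.4 percentage points (permutation p = 0.200, adjusted 0.401).

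Gene levels within DC2 were then compared between 85% and 21% O2 over the 10 hyperoxic and 7 normoxic mice with at least 2 DC2 cells, with age in the fit. None of 498 genes tested passed an adjusted p of 0.05 (0.0% called) by edgeR's quasi-likelihood test, with 14 genes at an unadjusted p under 0.05, and DESeq2 also called 0, with 12 at an unadjusted p under 0.05. Ccr7 had a log2 fold change of -0.36 (SE 0.28), Fscn1 of 0.04 (SE 0.39) and Ccl22 of 0.72 (SE 0.45), with an adjusted p of 0.997 each by the edgeR test. Cd40 had -1.13 (SE 0.56) and Cd274 0.74, also short of the threshold. The median over all genes was -0.01, with 244 of a positive and 254 of a negative sign. Of 8 tested NF-kB genes, 2 had a positive and 6 a negative sign, and of 5 NRF2 targets 1 and 4, with none called. The difference between DC2 and DC1 in their response to oxygen was tested in 16 mice with both, 10 of them hyperoxic. None of 992 genes passed in the edgeR test (0.0% called), with 40 at an unadjusted p under 0.05. At this number of cells, changes of 2-fold in DC2 were mostly beyond detection. In a simulation of the oxygen comparison, 33.3% of genes with a 2-fold change and 98.8% of those with a 4-fold change were recovered. There, 84 and 82 of the 498 genes were changed and all genes shared a common dispersion. This is an easier setting than data with few changed genes, so 4-fold changes could also have been missed.

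Between P14 and P7, 6 of the 498 genes (1.2%) passed, 4 higher at P14 (0.803%) and 2 lower (0.402%), over 9 mice at P14 and 6 at P7, with oxygen in the fit. Of the 6 P7 mice, 5 came from the pool that held only P7 mice and whose cells had Hbb-bs in 70.8%. Age and pool thus cannot be told apart here, and sex, unequal at P7 by the paper, was not in the fit. With all 25 mice that held a DC2 cell, 5 of 306 genes passed, 1 higher and 4 lower, and 2 of them were among the 6. Ccl22 ran from 71.6 to 1282 CPM with a median of 547 at P7 and from 686 to 5653 CPM with a median of 2182 at P14. The ages overlapped, and Ccl22 rose by 2.03 on the log2 scale (SE 0.47, adjusted p = 0.0315, edgeR quasi-likelihood test with Benjamini-Hochberg adjustment). AA467197 (chromosome 2, 122636986 to 122641191), a small gene also known as Nmes1, was at or below 80.6 CPM in every P7 mouse and had a median of 484 CPM and a highest of 3977 CPM at P14. Pkib (chromosome 10, 57631981 to 57741112), an inhibitor of protein kinase A, was likewise at most 80.6 CPM at P7, with a median of 412 CPM and a highest of 1746 CPM at P14. Both had a P14 mouse at 0, and their log2 fold changes were 4.46 (SE 0.99) and 4.33 (SE 0.97), with an adjusted p of 0.0315 each by the edgeR test. By cells, AA467197 was found in 16 of 28 cells at P14 and 2 of 31 at P7, and Pkib in 14 and 4.

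The mitochondrial gene mt-Atp6, a subunit of ATP synthase, had between 4296 and 6616 CPM at P7 and between 7662 and 17843 CPM at P14, with no overlap. Its log2 fold change was 1.13 (SE 0.28, adjusted p = 0.0449 by the edgeR test). All 10 tested genes of the mitochondrial genome had a positive sign, with a median of 0.90 against 0.03 over all genes, and mt-Atp6 was the only one called. The mitochondrial share of a mouse's DC2 UMIs, a usual sign of RNA quality, ran from 2.65% to 3.62% at P7 and from 4.06% to 9.93% at P14, and its part in the age differences was not tested. Stromal RNA had the same sign, short of the threshold. Col1a1, a fibroblast collagen, had a log2 fold change of 2.16 and was found in 16.1% of cells at P7 and 39.3% at P14, and its part was not tested either. Ier5, an immediate early gene, ran from 844 to 1854 CPM at P7 and from 377 to 907 CPM at P14, and fell by 1.24 on the log2 scale (SE 0.28). Ubb, a polyubiquitin gene, ran from 2041 to 4393 CPM at P7 and from 686 to 2334 CPM at P14, and fell by 1.17 (SE 0.28). The ages overlapped for both, and both passed the edgeR test after adjustment.

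**Figure D5:**
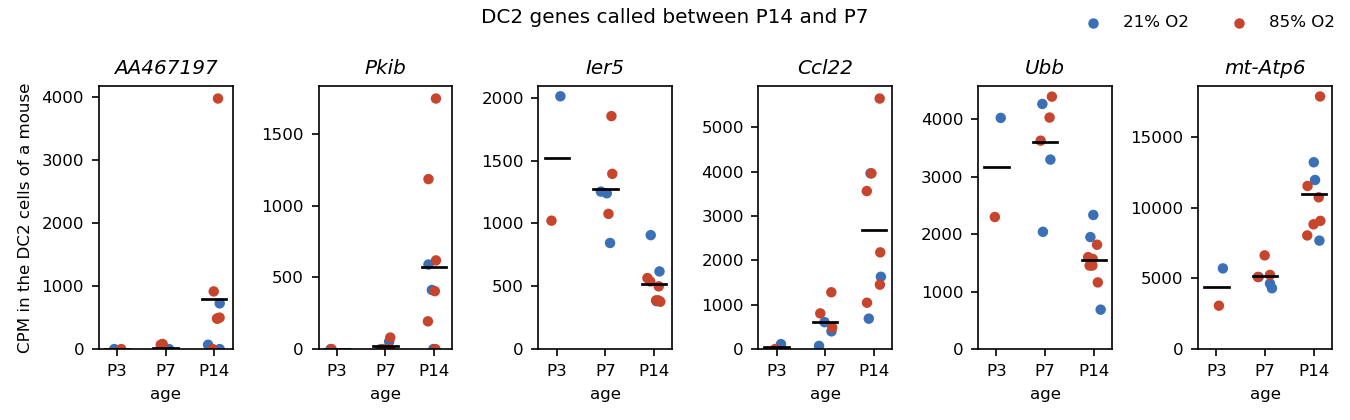
Level in DC2, in CPM on a linear axis from 0 for each gene, of the 6 genes called between P14 and P7, in each of the 17 mice with at least 2 DC2 cells (2 at P3, 6 at P7, 9 at P14). Each point is a mouse, blue at 21% and red at 85% O2, and the bar marks the mean. Ccl22, AA467197, Pkib and mt-Atp6 are higher at P14 and Ier5 and Ubb lower, and only mt-Atp6 has no overlap between P7 and P14.

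Other genes did not pass. Nearest to the calls were mt-Nd2 and mt-Cytb, with log2 fold changes of 1.38 (SE 0.38) and 1.23 (SE 0.33) and an adjusted p of 0.0776 each by the edgeR test. Of the chemokines, Ccl17 had a log2 fold change of 2.26 (SE 0.81, adjusted p = 0.171) and Ccl5 one of -1.82 (SE 0.62, adjusted p = 0.163) by the edgeR test. Ccl5 ran from 13645 to 43927 CPM at P7 and from 0 to 13575 CPM at P14, so that the mice of the 2 ages did not overlap despite the adjusted p. All 12 tested genes of MHC class I had a negative sign (median log2 fold change -0.52) and all 5 of class II a positive one (median 0.83), with none called in either. Of 13 migration genes, 1 was positive and 12 negative, with a median of -0.23 and none called. Over all 498 genes tested, 257 had a positive and 241 a negative sign. Without P7 mouse 4 at 21% O2, P7 mouse 4 or 6 at 85% O2 or P14 mouse 6 at 85% O2 no gene was called, nor among mice with at least 3 DC2 cells. The log2 fold changes kept their sign with any mouse left out, from 1.71 to 2.25 for Ccl22, 3.69 to 4.89 for AA467197, 3.68 to 5.14 for Pkib and 0.99 to 1.17 for mt-Atp6, and from -1.43 to -1.01 for Ier5 and -1.36 to -1.06 for Ubb. In DC1, fitted in the same way after the DC2 values were seen, 34 of 743 genes (4.58%) were called between these ages. Pkib had a log2 fold change of 0.76 there (adjusted p = 0.0409), Ubb one of -0.46 (adjusted p = 0.00862), mt-Atp6 one of 0.32 (adjusted p = 0.0615) and Ier5 one of 0.03 (adjusted p = 0.985) by the edgeR test, while AA467197 and Ccl22 were too low in DC1 to be tested. Whether the effects of age differed between DC2 and DC1 was not tested.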

How the data were processed

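The study sequenced dissociated lung cells of 36 mice in 6 droplet libraries, and the submitters' processing notes name Cell Ranger 3.0.2 and the mouse genome mm10. The authors deposited a matrix of UMI counts for 61839 cells and 22100 genes after their own filters, a table that gives each cell its mouse, age, oxygen level, cluster and phase, and counts of sample barcodes per cell. In that table the authors give the mitochondrial content of a cell as a percent. The UMI sum of all 61839 cells matched the annotation, 0 columns went unmatched to a sample, and no doublet caller was run. Reads were not used here, so filters made before deposit were not varied.

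The replicate was the mouse. Cells named DC2 or DC1 were summed per mouse, mice with at least 2 such cells were kept, and counts were scaled to the sum of the mouse's cells (CPM). DC2 and DC1 were compared by the log2 ratio of mean CPM with a pseudocount of 10, counted past a 2-fold difference with a UMI in at least 25% of cells of the higher type. Oxygen and age were tested with the quasi-likelihood test of edgeR 4.0.16 in R 4.3.3 (TMM, filterByExpr, Benjamini-Hochberg adjustment over all genes tested), at an adjusted p below 0.05 and a UMI in at least 10% of cells of a group. DESeq2 1.42.0 was an alternative. Shares were tested with two-sided exact permutation tests over mice (100000 resamples where both groups held 10 or more) in Python 3.11.15 with scipy 1.17.1, numpy 2.4.6 and pandas 2.3.3, and plots were drawn with matplotlib 3.10.9. The smallest p for 6 mice against 6 is 0.00216. On simulated data, the oxygen fit recovered 33.3% of genes with a log2 fold change of 1 and 98.8% of those with 2, and called 0.602% of unchanged genes, of 498 genes in the step. The simulation changed 84 and 82 genes and gave all genes a common dispersion. These shares do not carry over to data with few changed genes.

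Mice were assigned to pools by the library name and sample barcode of their cells. The 2 libraries that joined P3 and P7 mice were taken as 1 pool, and each other library as a pool of its own. The pool served as the replicate block. The 67 cells were chosen by the cluster name. The 30 gene lists (283 genes, 2 not measured) were chosen with earlier results of these data known. Named genes were those of the lists, the 12 genes of highest and of lowest ratio with at least 100 CPM and a UMI in at least 25% of cells, every called gene, and the 12 genes of highest ratio to the next of the 34 types. Alternatives covered the number of cells per mouse, normalization, filters, pseudocounts of 1 and 50, age, oxygen and each mouse left out. Depth was set to 1000 UMIs per cell for the levels and to 1500 for the oxygen fit.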

Additional observations from a re-analysis of the deposited data

Results flagged for a closer look

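In 44 groups of 4 to 10 mice, the highest or lowest mouse was tested for a gap to the rest beyond Dixon's critical value, and 7 groups held such a mouse, where chance flags about 1 in 20 groups of values that are not bounded by 0. The share of DC2 among all cells had such a mouse at P3 under 21% O2, with 0.0842%, the only one of the 6 with a DC2 cell, where 5 values of 0 make any other value stand apart. Another was found at P3 under 85% O2, with 0.159%. Within DC2, 1 mouse stood apart with 3977 CPM of AA467197 at P14, and 1 with 1213 CPM of Ccl17 at P7, where the median was 0. The Ccl17 of this P7 mouse came from 1 cell. At P14, 1 mouse stood apart with 1525 CPM of Cd40, through which T cells license dendritic cells, and 1 with 1830 CPM of the non-classical class I gene H2-M2. The last was a P14 mouse with 907 CPM of the immediate early gene Ier5, above the other 8 of its age. Each of these levels rests on the few DC2 cells of 1 mouse.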

How the results depend on the processing

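Oxygen called 0 genes in DC2 and 0 genes differed between DC2 and DC1 in their response under every alternative run. With the pool as a replicate block, oxygen called 0 of 722 genes in DC2, with 23 at an unadjusted p under 0.05 (edgeR quasi-likelihood test). With cells thinned to 1500 UMIs, only 127 genes could be tested in DC2. The replicate block left the comparisons of shares on the same side of the threshold, with an adjusted permutation p of 0.333 (P3), 0.385 (P7) and 0.0981 (P14), and of 0.716 for the percent of dendritic cells. By edgeR on numbers of cells, P7 against P3 at 21% O2 had a log2 fold change of 2.98 (adjusted p = 0.0212) and P14 against P3 at 85% O2 one of 1.63 (adjusted p = 0.140). With at least 5 dendritic cells per mouse, P14 differed from P7 by -26.7 percentage points. The count of 6 genes between P14 and P7 became 0 with at least 3 DC2 cells per mouse, 13 with DESeq2 (6 of them shared), 13 with no filter on low counts (3 shared) and 1 in normoxic mice (0 shared). With each mouse left out in turn it ran from 0 to 11. It was 1 or 2 without P7 mouse 5 or 6 at 21% O2 or P14 mouse 6 at 21% O2, 10 without P3 mouse 2 at 85% O2 and 11 without P14 mouse 5 at 21% O2. The cause was not tested. Genes higher and lower in DC2 than in DC1 numbered 443 and 366 with a pseudocount of 50 CPM, which by construction shrinks ratios of low genes, and 697 to 741 and 817 to 871 with each mouse left out. Under thinning to 1000 UMIs, 37 of the genes that passed 2-fold changed sign, among them Mdm2 (-1.09) and Nfkbie (-0.50), and Hbb-bs was -0.41 in P14 mice only. No other named gene past 2-fold changed sign under an alternative. With 67 cells, depth limits every value within DC2.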
